A study of Rattus norvegicus with 9 samples.

Results

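The genes that encode the proteins of the mitochondrial ribosome were described in rat primary hippocampal neurons exposed to aminoprocalcitonin (NPCT) or procalcitonin (PCT). Members were the protein-coding genes whose symbol begins with Mrpl or Mrps followed by a digit and whose mean level over the 9 libraries was at least 0.5 FPKM (fragments scaled to the length of the gene and a depth set for each library). Of 34092 genes in the table, 76 had such a symbol, and 73 of them passed the limit, 44 named for the large subunit and 29 for the small subunit. They were part of the 15958 genes that were tested. Mrpl36 and Mrpl53 were listed at 0 in every library. Mrps21l, a copy of Mrps21, lay just outside the limit with a mean of 0.316 FPKM, and Mrpl30 just inside with 1.02 FPKM. The symbols mrpl9, mrpl11 and mrpl24 are spelled in lower case in the table and were outside the rule, so they are given apart. With them, the medians of log2 fold change given for all members would be 0.21 with NPCT and 0.23 with PCT over 76 genes.

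The neurons came from hippocampi of wild-type (WT) rat fetuses of embryonic day 17 and were at 7 days in vitro. Control neurons received vehicle, and the other groups received 1 nM human NPCT or 1 nM human PCT for 24 h, with 3 libraries of poly-A selected RNA in each group. PCT is the parent peptide and NPCT the fragment cut from its amino end. The study compared both peptides with vehicle to learn what each does to the neuronal transcriptome. The methods describe RNA pooled from biological triplicates while the labels number 3 replicates per group, so p values measure the spread between these libraries, which may be technical.

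The libraries held between 13573056 and 17211642 fragments. Summed FPKM of 12 neuronal markers lay between 2278 and 2356 in Control, 2157 and 2222 in NPCT and 2249 and 2462 in PCT. With NPCT, 6 of the 12 were lower and 1 higher at an unadjusted p under 0.05 (median log2 fold change -0.14), against 14.9% and 14.4% of all genes. Summed FPKM of 7 astrocyte markers lay between 2106 and 2290 in Control, 2024 and 2346 in NPCT and 1915 and 1989 in PCT, so both cell types were in the cultures. Microglial markers, 7 of 8 tested, summed to 19.8 to 27.4 FPKM in Control, 27.3 to 114 in NPCT and 8.39 to 10.9 in PCT. The median sum in NPCT was 30.6, so its upper end came from a single library. Fibroblast markers summed to 11.4 to 14.9 FPKM in Control, 11 to 13 in NPCT and 13.6 to 22.6 in PCT. Oligodendrocyte markers summed to 395 to 414 in Control, 424 to 432 in NPCT and 337 to 352 in PCT. By gene, 5 of these 7 oligodendrocyte markers had a positive log2 fold change with PCT and 2 a negative one (median 0.17). The lower sum with PCT thus did not stand for most of that list. The endothelial marker Cldn5 was listed at 0 throughout. Among the astrocyte markers, 4 of 7 were called lower with PCT, with a median log2 fold change of -0.60 over the list. Among the microglial markers, 0 of 7 were called with NPCT and 3 of 7 were called lower with PCT. All 7 had a positive log2 fold change with NPCT (median 0.49) and a negative one with PCT (median -1.38). Of all genes, 0.219% were called with NPCT and 2.31% with PCT. The part of these shifts in the results was not tested, and in bulk RNA fewer cells of a type cannot be told apart from less RNA per cell.

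Mitochondria carry their own ribosome, which translates the few mRNAs of mitochondrial DNA into core subunits of the respiratory chain. Its ribosomal RNAs are made inside the organelle, while all of its proteins are encoded in the nucleus, made in the cytosol and imported. Many of these proteins have bacterial homologs, others are found only in mitochondrial ribosomes, and defects in several cause disorders of oxidative phosphorylation in humans.

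The promoters of some members are shown first, as the 250 bases before the RefSeq start site on build GRCr8. They were picked in part for motif matches and do not stand for the members as a set. Mrpl54 and Mrps7 are the members called against Control, Mrps26 stood next to them with NPCT, and Mrpl27 and Mrps18b hold matches to motifs of factors known to act on nuclear genes for mitochondrial proteins. The windows lie at chr7:9103275-9103524 for Mrpl54, chr10:101342392-101342641 for Mrps7, chr3:138222074-138222323 for Mrps26, chr10:80092095-80092344 for Mrpl27 and chr20:2842756-2843005 for Mrps18b, all on the plus strand. Capitals mark matches to the motifs searched.
Mrpl54: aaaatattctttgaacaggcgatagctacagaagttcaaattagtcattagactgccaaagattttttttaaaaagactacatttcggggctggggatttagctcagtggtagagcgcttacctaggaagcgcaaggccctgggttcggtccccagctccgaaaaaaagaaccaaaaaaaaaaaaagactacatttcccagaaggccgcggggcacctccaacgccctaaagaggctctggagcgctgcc
Mrps7: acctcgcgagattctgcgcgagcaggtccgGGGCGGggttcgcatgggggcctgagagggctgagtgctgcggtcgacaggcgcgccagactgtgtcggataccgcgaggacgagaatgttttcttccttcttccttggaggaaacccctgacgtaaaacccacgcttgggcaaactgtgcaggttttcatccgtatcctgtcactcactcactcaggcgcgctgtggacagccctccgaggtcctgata
Mrps26: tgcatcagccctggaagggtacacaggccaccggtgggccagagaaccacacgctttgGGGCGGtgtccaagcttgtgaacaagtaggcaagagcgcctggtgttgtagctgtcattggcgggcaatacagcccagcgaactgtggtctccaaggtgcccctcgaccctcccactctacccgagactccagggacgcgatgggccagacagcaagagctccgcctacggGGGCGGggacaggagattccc
Mrpl27: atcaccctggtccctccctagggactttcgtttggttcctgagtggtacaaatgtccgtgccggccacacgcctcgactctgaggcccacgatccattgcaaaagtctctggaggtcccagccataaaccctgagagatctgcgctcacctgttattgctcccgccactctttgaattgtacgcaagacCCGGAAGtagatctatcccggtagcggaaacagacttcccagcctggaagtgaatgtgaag
Mrps18b: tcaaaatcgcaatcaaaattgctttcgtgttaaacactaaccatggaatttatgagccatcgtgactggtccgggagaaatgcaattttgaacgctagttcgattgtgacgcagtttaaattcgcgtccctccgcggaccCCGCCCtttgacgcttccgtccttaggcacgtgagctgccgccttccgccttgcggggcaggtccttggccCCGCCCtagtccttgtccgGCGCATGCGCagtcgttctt

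Searched on both strands were CCGGAAG (the core bound by ETS factors such as Gabpa), GCGCATGC (a part of the palindromic NRF1 site), AAGATGGC (YY1), GGGCGG (GC box) and, for the element that bears the same name, TATAAA. Of the 73 members, 58 had a complete window. ETS cores were in 11 of them (19.0%), against 7.74% of 27457 promoters of the same length. Those promoters belong to RefSeq genes whether tested here or not, so they are not matched to the members by expression. The part of the NRF1 site was in 5 (8.62%, against 2.38%), the YY1 motif in 2 (3.45%, against 1.69%), the GC box in 26 (44.8%, against 32.4%) and TATAAA in 7 (12.1%, against 13.1%). In Mrpl27 an ETS core lay 61 bases before the start, at -61, and in Mrps18b matches to the part of the NRF1 site lay at -20 and, on the other strand, at -18, which are 1 palindrome read from both strands, with GC boxes at -110 and -39. Mrps7 held a GC box at -220 and Mrps26 held GC boxes at -192 and -21, while Mrpl54 held none of the motifs. The median GC content of the members' windows was 54.4%, against 52% over all promoters. These matches are letters in a window and no measurement of binding.

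Position gave another feature that the symbol rule did not use. The members lay on 18 chromosomes. A gene of the opposite strand began within 1000 bases of the start of 21 of 73 members (28.8%), against 1362 of 13561 tested protein-coding genes (10.04%). Mrps11 and Mrpl46, which encode proteins of different subunits, start 72 bases apart and face away from each other. The spans of 12 members overlapped another gene, and the protocol does not state that strand was kept, so reads of such pairs cannot be told apart where they overlap.

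Most members were expressed at a middle level. The median over the 73 genes of the mean FPKM was 20.9, with 10% of members below 9.74 and 10% above 44.2, and 59 members lay between 10 and 50 FPKM. In the large subunit, Mrpl33 was highest at 119 FPKM, followed by Mrpl17 at 77.2 and Mrpl28 at 52.1. Among the members with small subunit names, Mrps6 was highest at 66.3 FPKM, followed by Mrps25 at 46.9 and Mrps18a, which sits in the large subunit, at 44.5. The neighbours Mrps25 and Mrps18a overlapped in range, from 40.3 to 58 FPKM and from 36.5 to 49.8 FPKM. At the low end stood Mrps36 at 7.79, Mrps28 at 8.45 and Mrps5 at 9.72 FPKM in the small subunit, and Mrpl30 at 1.02, Mrpl1 at 3.59 and Mrpl47 at 4.97 FPKM in the large one. Mrps36 is now placed in the 2-oxoglutarate dehydrogenase complex rather than in the ribosome.

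Libraries of a group were alike for most members. The median over members of the pooled SD of log2 FPKM was 0.14, and the lowest was 0.07. Mrpl30 and Mrpl1 stood apart with 1.81 and 1.59. Mrpl30 was at 0.223, 2.54 and 2.5 FPKM in Control, 1.88, 0.0713 and 0.155 in NPCT, and 1.54, 0.264 and 0.0389 in PCT, so that high and low libraries were found in every group. Mrpl1, a protein of the mobile stalk beside the tRNA exit site, was at 1.47, 2.48 and 3.48 FPKM in Control, 3.16, 4.77 and 6.59 in NPCT, and 0.121, 4.31 and 5.9 in PCT. The lowest PCT value of Mrpl1 rested on 2 fragments. For both genes, the differences between groups were within this spread.

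As a family, the members were higher with each peptide than with vehicle. Summed over members and expressed as a share of the summed FPKM of the library, in ppm, they amounted to 3454, 3482 and 3589 in Control, 4212, 4007 and 4327 in NPCT, and 3777, 4086 and 4474 in PCT. All treated libraries thus lay above all control libraries. The group means were 3508 ± 71.1, 4182 ± 162 and 4112 ± 349 (SD, n = 3). The median over members of the log2 level relative to each gene's mean lay between -0.15 and -0.12 in Control, between -0.02 and 0.15 in NPCT and between -0.01 and 0.16 in PCT, while the same median over all genes tested stayed between 0.0051 and 0.013.

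**Figure D1:**
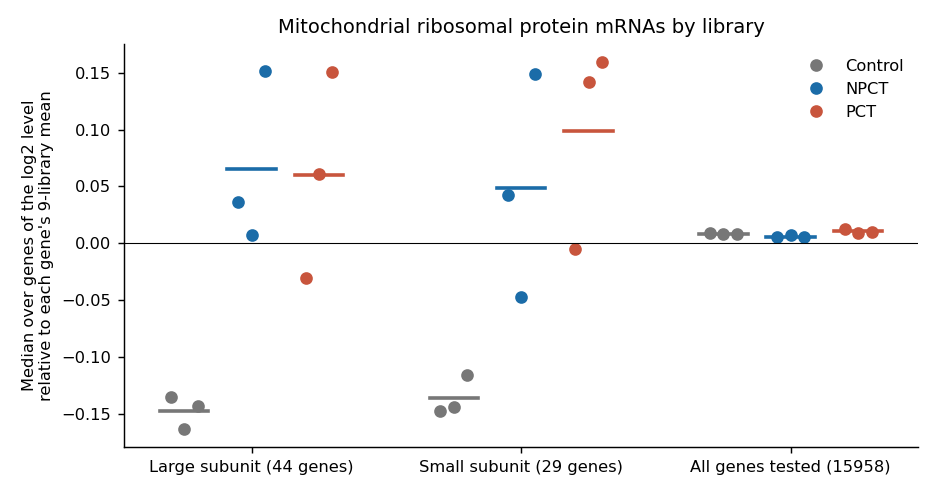
Median over genes of the log2 level relative to each gene's mean over 9 libraries (vertical axis) for the 44 large subunit members, the 29 small subunit members and all 15958 genes tested. Each point is a library and each bar the mean of 3 libraries; the control libraries lie lowest for both subunits, and the groups lie together for all genes.

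With NPCT, the median log2 fold change of the 73 members against Control was 0.21, with 0.22 in the large and 0.16 in the small subunit, against 0.01 over all genes tested. Without NPCT replicate 3 the median of all members was 0.14, and with the trend on gene length over all genes removed in each library it was 0.11. A positive fold change was measured in 58 members and a negative one in 15. A gene was called where its adjusted p did not exceed 0.05 and it differed by more than 1.5-fold. Only 1 member was called, Mrpl54, while 35 genes (0.219% of those tested) were called in all. At an unadjusted p under 0.05, 28 members were higher and 3 lower (38.4% and 4.11% of members), against 14.4% and 14.9% of all genes. The count of 3 was 5 without Control replicate 1, and 1 without Control replicate 2 or 3 or NPCT replicate 1 or 2. With the length trend removed, 19 were higher and 5 lower (26% and 6.85%), against 13.3% and 14.7% of all genes. All 3 NPCT libraries lay above all 3 Control libraries in 32 members and below them in 4 (43.8% and 5.48%), against 20% and 20.3% of all genes.

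Mrpl54, a large subunit protein found only in mitochondrial ribosomes, rose with NPCT. The gene spans chr7:11321057-11323577 on Rnor_6.0, plus strand, with a length of 611 bases in the table. It was at 28.8, 32.8 and 29.6 FPKM in Control, 48.1, 49.8 and 61 in NPCT, and 39.3, 46.7 and 50.9 in PCT. All libraries of either peptide were above the controls. Its log2 fold change with NPCT was 0.79 (95% interval 0.53 to 1.06, adjusted p = 0.0493 by limma), a fold of 1.73. Leaving out any single Control or NPCT library, or PCT replicate 2, ended this call, with an adjusted p between 0.00479 and 0.169 over all libraries left out. It also ended with no filter on low values (0.066) and with no intensity trend (0.0929).

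Mrps26, a small subunit protein without a bacterial counterpart, missed the threshold with NPCT. It was at 19.1, 17.9 and 21.3 FPKM in Control and at 36, 30.7 and 33.3 in NPCT, a log2 difference of 0.78 (0.43 to 1.13, adjusted p = 0.0509). Mrps7, the homolog of the bacterial protein S7 in the head of the small subunit, was at 13.3, 15.3 and 14.6 FPKM in Control and 22.9, 21.7 and 26.8 in NPCT, a log2 difference of 0.72 (0.44 to 1.00, adjusted p = 0.0505). Neither gene's NPCT range overlapped its Control range. With the replicate block both were called, at adjusted p values by limma of 0.0391 for Mrps26 and 0.0379 for Mrps7. Mrpl27 and Mrpl54 were the other members called in that fit, where 319 of all genes were called. Mrpl27, a neighbour of the peptidyl transferase centre, was at 32.5, 35.1 and 33.9 FPKM in Control and 52, 43.8 and 64.9 in NPCT, with a log2 difference of 0.64 (adjusted p = 0.0586). Mrps12, part of the decoding centre, followed with 0.57 (adjusted p = 0.0555). The number of members called moved with the setting, from 0 with no filter or no intensity trend to 5 with limma-voom on fragments recovered from FPKM and 6 in a fit of these 2 groups alone, where 391 and 579 of all genes were called.

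Mrpl49 and Mrpl20, of the large subunit, had differences of like size with wider intervals. Mrpl49 was at 10.9, 8.7 and 12.2 FPKM in Control and 20.5, 17.5 and 20.7 in NPCT, a log2 difference of 0.89 (0.11 to 1.67, adjusted p = 0.128). The span of Mrpl49 shares 551 bases with Syvn1 on the opposite strand (mean 12.7 FPKM), so reads there cannot be told apart. Mrpl20, the homolog of an early rRNA-binding protein of bacteria, was at 35.6, 36.3 and 36 FPKM in Control and 58.9, 50.2 and 62.6 in NPCT, a log2 difference of 0.66 (0.09 to 1.23, adjusted p = 0.122). PCT replicate 3, which enters the shared estimate of spread, was at 33 FPKM for Mrpl49 and 71.7 for Mrpl20, against 12.1 and 12, and 35.8 and 32.6, in the other PCT libraries. Without that library the adjusted p values with NPCT were 0.00516 and 0.00373. Fau, which starts 156 bases from Mrpl49 on the opposite strand and encodes a ribosomal protein of the cytosol, had log2 fold changes of 1.18 with NPCT and 1.28 with PCT, with a wide spread in Control (153 ± 117 FPKM, SD, n = 3).

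Members lower with NPCT were few. Mrps30, which carries a small subunit name but sits in the large subunit, was at 33.7, 33.4 and 32.7 FPKM in Control and 26.4, 26.1 and 24.3 in NPCT. The groups did not overlap, and the log2 difference was -0.38 (-0.62 to -0.13, adjusted p = 0.0709). Mrpl32, a protein matured by a protease of the inner membrane, had -0.32 (adjusted p = 0.108) and Mrpl47, near the exit of the nascent chain, -0.26 (adjusted p = 0.135). Mrps35 and Mrps18b were below the controls in all NPCT libraries, with log2 differences of -0.17 and -0.18 (adjusted p = 0.218 and 0.296).

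With PCT, the median log2 fold change of the members against Control was 0.23, with 0.22 in the large and 0.24 in the small subunit, against 0.00 over all genes. Positive fold changes were measured in 67 members and negative ones in 6, and the 29 members with small subunit names were on the positive side. Some of these were near 0, and Mrps11 (0.01), Mrps14 (0.01), Mrps23 (0.03) and Mrps5 (0.04) were negative when a library was left out, at -0.15 and -0.13 for Mrps11 and Mrps23 without PCT replicate 3, -0.10 for Mrps14 without Control replicate 2 and -0.03 for Mrps5 without PCT replicate 2. Called was 1 member, Mrps7, against 368 genes (2.31%) in all. At an unadjusted p under 0.05, 29 members were higher and 0 lower (39.7% of members higher), against 10.1% and 8.79% of all genes. All PCT libraries lay above all Control libraries in 34 members and below them in 0 (46.6% higher), against 13.1% and 11.9% of all genes. Both comparisons use the same control libraries, so their values stand side by side and do not support each other.

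Mrps7 rose with PCT. The gene spans chr10:104155805-104158839 on Rnor_6.0, plus strand, and is 997 bases long in the table. It was at 20.4, 22.6 and 27.7 FPKM in PCT, each above the highest Control library, and its log2 fold change was 0.70 (0.42 to 0.98, adjusted p = 0.0173), a fold of 1.62. The call ended without Control replicate 1, Control replicate 3 or PCT replicate 3. Without PCT replicate 3 the log2 value was 0.58 (adjusted p = 0.025), under the limit of 1.5-fold. Its span shares 772 bases with Gga3 on the opposite strand, whose log2 fold changes were 0.02 with NPCT and 0.09 with PCT.

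Mrpl54 and Mrpl33 passed the adjusted p with PCT but not the fold limit, so that 3 members passed it (4.11%, against 1.75% of all genes higher and 2.46% lower). Mrpl54 had a log2 difference of 0.58 (0.31 to 0.84, adjusted p = 0.0314). Mrpl33, the shortest member at 236 bases and a small protein of the large subunit, was at 92.8, 115 and 95.4 FPKM in Control, 107, 116 and 131 in NPCT, and 135, 137 and 140 in PCT, a log2 difference of 0.45 with PCT (0.23 to 0.67, adjusted p = 0.0396). Without PCT replicate 3 these adjusted p values were 0.0595 and 0.0696, and the highest without any 1 library were 0.13 and 0.158. With the length trend removed, that of Mrpl33 was 0.0595. The count of 3 was 0 without Control replicate 1, 1 without Control replicate 3, NPCT replicate 2 or PCT replicate 2, and 5 without NPCT replicate 3 or PCT replicate 1. Mrps26 was at 22.8, 31.8 and 36.2 FPKM in PCT, with 0.62 (0.27 to 0.97, adjusted p = 0.063). Mrps21, a homolog of the bacterial protein S21, was at 28, 32.3 and 40.3 FPKM in Control and 41.3, 51.6 and 48.8 in PCT, with 0.50 (adjusted p = 0.0774). Mrpl49 had 0.68 (adjusted p = 0.331), and 0.20 without PCT replicate 3, and Mrpl20 had 0.28, and -0.07 without it. That library was above the mean of the other PCT libraries in 50 of 73 members (68.5%), against 50.8% of all genes.

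**Figure D2:**
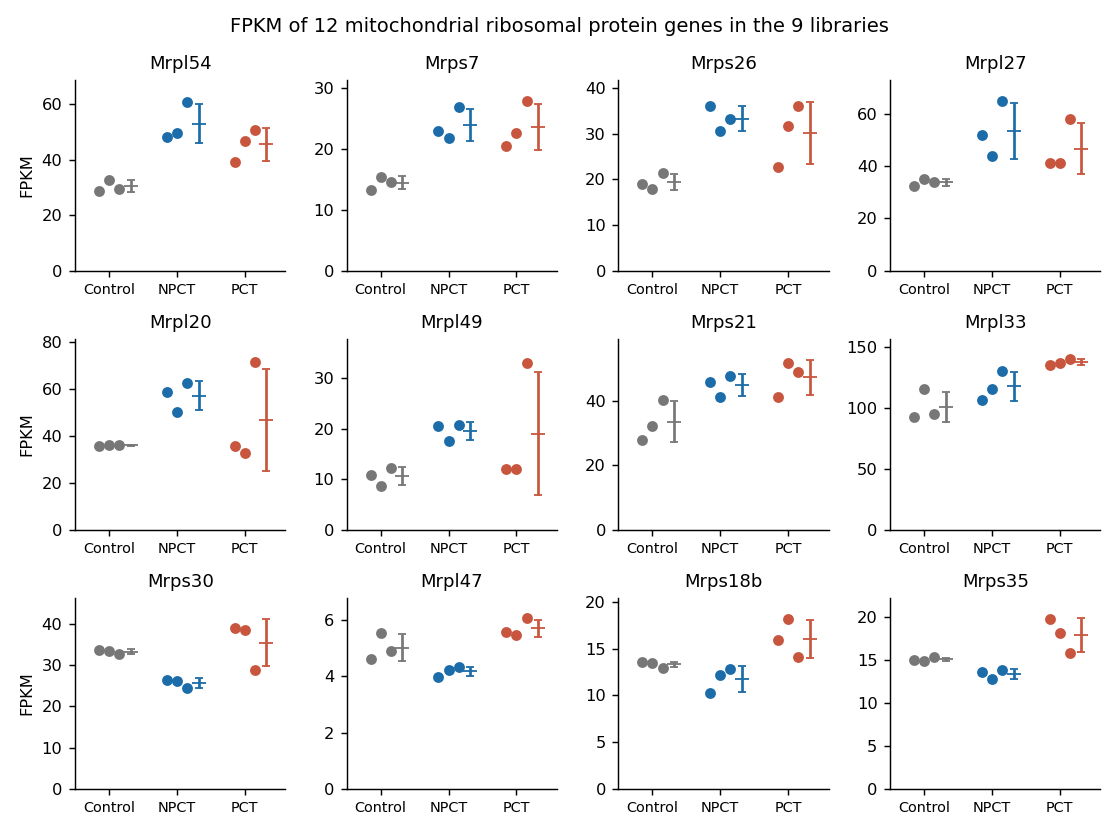
FPKM (vertical axes, from 0) of 12 members in the 3 Control, 3 NPCT and 3 PCT libraries. Points are libraries, and the marks to their right give the mean and SD; Mrpl54, Mrps7 and Mrps26 lie above Control with both peptides, Mrpl20 and Mrpl49 have a single high PCT library, and the bottom row shows the members lower with NPCT than with PCT.

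Values are next given by place in the ribosome. In the stalk that recruits translation factors, Mrpl12 was at 25.8, 23.7 and 28 FPKM in Control, 35, 29.3 and 37.2 in NPCT, and 32.4, 32.4 and 35.1 in PCT, with log2 differences of 0.38 (adjusted p = 0.059) and 0.37 (0.0769). Its partner Mrpl10 had log2 differences of -0.01 and -0.10, and the other stalk protein, mrpl11, 0.27 and 0.11. Around the exit of the nascent chain, Mrpl47, given above, had -0.26 and 0.19, Mrpl23 had 0.30 and 0.15, Mrpl22 0.25 and 0.25, Mrpl45, which tethers the ribosome to the inner membrane, 0.14 and 0.18, and mrpl24 0.07 and 0.39, the latter value with an adjusted p of 0.0481 for PCT. In the central protuberance, Mrpl48 had 0.26 and 0.27, Mrpl46 0.22 and 0.24, Mrpl38 0.22 and 0.36 and Mrpl40 -0.11 and 0.21. The peptidyl-tRNA hydrolase Mrpl58 had 0.22 and 0.12, Mrpl41 0.48 and 0.17, and the RNA-binding protein Mrps27 -0.09 and 0.11. Apart from mrpl24, none of the genes of this paragraph passed an adjusted p of 0.05 against Control.

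By origin, the median log2 fold changes with NPCT and PCT were 0.15 and 0.23 for 28 large subunit genes with bacterial homologs, lower-case symbols included, and 0.22 and 0.22 for 20 other large subunit genes, Mrps30 and Mrps18a counted here. In the small subunit they were 0.25 and 0.25 for 16 genes with bacterial homologs and 0.04 and 0.22 for 10 other genes. Mrps18a and Mrps18b, which are related to bacterial S18 as is Mrps18c, were listed among the other genes. Mrpl55, with log2 fold changes of 0.27 with NPCT and 0.21 with PCT, and Mrps36 were in none of these lists. Of 12 members known as genes of human mitochondrial disease, among them Mrps7, Mrps34, Mrps22, Mrps2 and Mrpl44, 3 were higher with NPCT and 3 with PCT at an unadjusted p under 0.05 and 0 lower with either, with medians of 0.14 and 0.19. Of all genes, 14.4% were higher with NPCT and 10.1% with PCT.

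The members differed among themselves by gene length. Over the 73 members, Spearman's rho between log2 fold change and length was -0.55 with NPCT and -0.44 with PCT, against -0.22 and -0.14 over all 15958 genes tested. The points share the same libraries, so these are descriptions. The 37 members of up to 1149 bases had a median log2 fold change of 0.35 with NPCT, with 23 higher and 1 lower at an unadjusted p under 0.05 (62.2% and 2.7%), against 18.4% and 6.96% of all genes of that length. The 36 longer members had 0.04, with 5 higher and 2 lower (13.9% and 5.56%), against 13.2% and 17.2% of longer genes, so the share of longer members that were higher was near that of all longer genes. With PCT the medians were 0.28 and 0.18, with 19 of the shorter members higher and 0 lower (51.4% higher), against 13.1% and 6.28% of shorter genes, and 10 of the longer members higher and 0 lower (27.8% higher), against 9.23% and 9.53% of longer genes. Their median length was 1149 bases, and that of all genes tested was 2136.

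Library by library, the slope of relative log2 level over all genes per doubling of length was -0.02 in NPCT replicate 1, -0.03 in replicate 2 and -0.02 in replicate 3, -0.03 in PCT replicate 3, 0.02 and 0.03 in the other PCT libraries, and between -0.0008 and 0.03 in Control. When the trend over all genes was removed in each library, the median of the members with NPCT went from 0.21 to 0.11, and that with PCT was 0.22, while the medians over all genes were -0.01 and 0.04. Mrpl54 kept its call (log2 difference 0.64, adjusted p = 0.0487). After this removal, Spearman's rho with length was still -0.42 over the members with NPCT and -0.34 with PCT, against -0.02 and -0.05 over all genes.

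**Figure D3:**
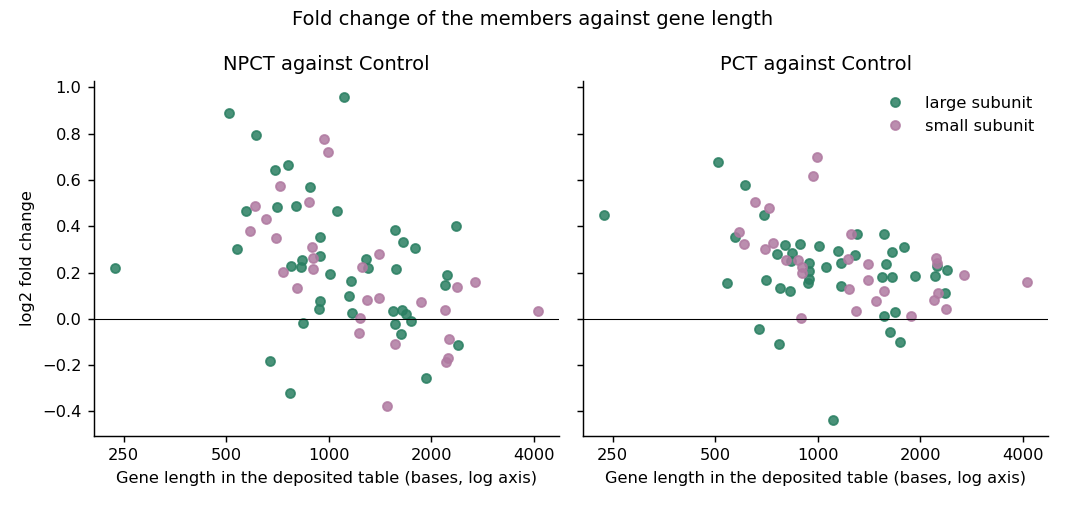
Log2 fold change of 72 members against Control (vertical axes) by gene length in bases (horizontal log axes), for NPCT on the left and PCT on the right. Points are genes, coloured by subunit, and Mrpl30 lies below the plotted range at -1.56 and -1.58; the shorter members lie higher, more clearly with NPCT.

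NPCT and PCT were compared directly at the same dose and time, as a single pair of peptides with p values adjusted over all genes tested. The median log2 difference of the members, NPCT against PCT, was -0.01, the same as over all genes. Of 73 members, 0 were called, against 919 genes (5.76%) in all. At an unadjusted p under 0.05, 1 member was higher with NPCT and 9 were lower (1.37% and 12.3%), against 15.6% and 17.5% of all genes. Without PCT replicate 3, 14 were higher and 12 lower (19.2% and 16.4%), against 20.4% and 20.8% of all genes, so the count of 1 rests on that library. The count of lower members was 5 without NPCT replicate 1 or PCT replicate 2. In 0 members did all NPCT libraries lie above all PCT libraries and in 14 (19.2%) below them, against 15.4% and 18% of all genes. The median of the members' 95% intervals, which are not adjusted for the number of genes, reached 0.25 on the log2 scale to either side of the estimate. Differences within that size could thus not be told from 0 for a typical member, and a call asked for more.

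With limma, 4 members were lower with NPCT than with PCT at an adjusted p up to 0.05 (5.48%, against 8.32% of all genes), all under the limit of 1.5-fold. Mrps30 was at 26.4, 26.1 and 24.3 FPKM in NPCT and 39, 38.6 and 28.8 in PCT, a log2 difference of -0.45 (-0.70 to -0.21, adjusted p = 0.0267). Mrps18b was at 10.2, 12.2 and 12.9 FPKM in NPCT and 15.9, 18.2 and 14.2 in PCT, a difference of -0.45 (-0.70 to -0.20, adjusted p = 0.0294). Neither pair of groups overlapped. Mrpl47 was at 3.99, 4.21 and 4.32 FPKM in NPCT and 5.57, 5.49 and 6.07 in PCT, with -0.44 (-0.67 to -0.21, adjusted p = 0.0233). The span of Mrpl47 shares 1443 bases with Actl6a on the opposite strand, whose mean was higher at 8.25 FPKM, so reads there cannot be told apart. Mrps35, a small subunit protein particular to mitochondria, was at 13.6, 12.8 and 13.9 FPKM in NPCT and 19.7, 18.1 and 15.9 in PCT, with -0.41 (-0.60 to -0.22, adjusted p = 0.0165). Each of the 4 no longer passed without NPCT replicate 1 or 2 or PCT replicate 1 or 2, nor did Mrps18b without Control replicate 1 or 2 and Mrps30 without NPCT replicate 3. The highest adjusted p without 1 library was 0.0881 for Mrps30, 0.0924 for Mrps18b, 0.0784 for Mrpl47 and 0.0556 for Mrps35. For each of these 4, Control lay between the means of the peptides. The lower-case mrpl24 followed with -0.32 (adjusted p = 0.0435).

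For the members called against Control, the peptides could not be told apart. Mrps7 differed by 0.02 (-0.26 to 0.30) and Mrpl54 by 0.21 (-0.05 to 0.48) on the log2 scale. Mrps11, of the small subunit platform, was higher with NPCT at an unadjusted p under 0.05, by 0.30 (adjusted p = 0.146), and it was the only such member in this fit, while other settings gave 0 to 3 with all 9 libraries, and Mrpl41 followed with 0.32 (adjusted p = 0.178). Without PCT replicate 3, 3 members were called (4.11%, against 10.2% of all genes in that fit), Mrpl20 with a log2 difference of 0.74 (adjusted p = 0.00138) and Mrpl49 with 0.69 (0.00836), both higher with NPCT, and Mrps30 with -0.60 (0.000648). With the length trend removed the median of the members was -0.10, against -0.05 over all genes, with 21 members lower and 0 higher at an unadjusted p under 0.05 (28.8% lower), against 22% and 13.1% of all genes in that fit.

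**Figure D4:**
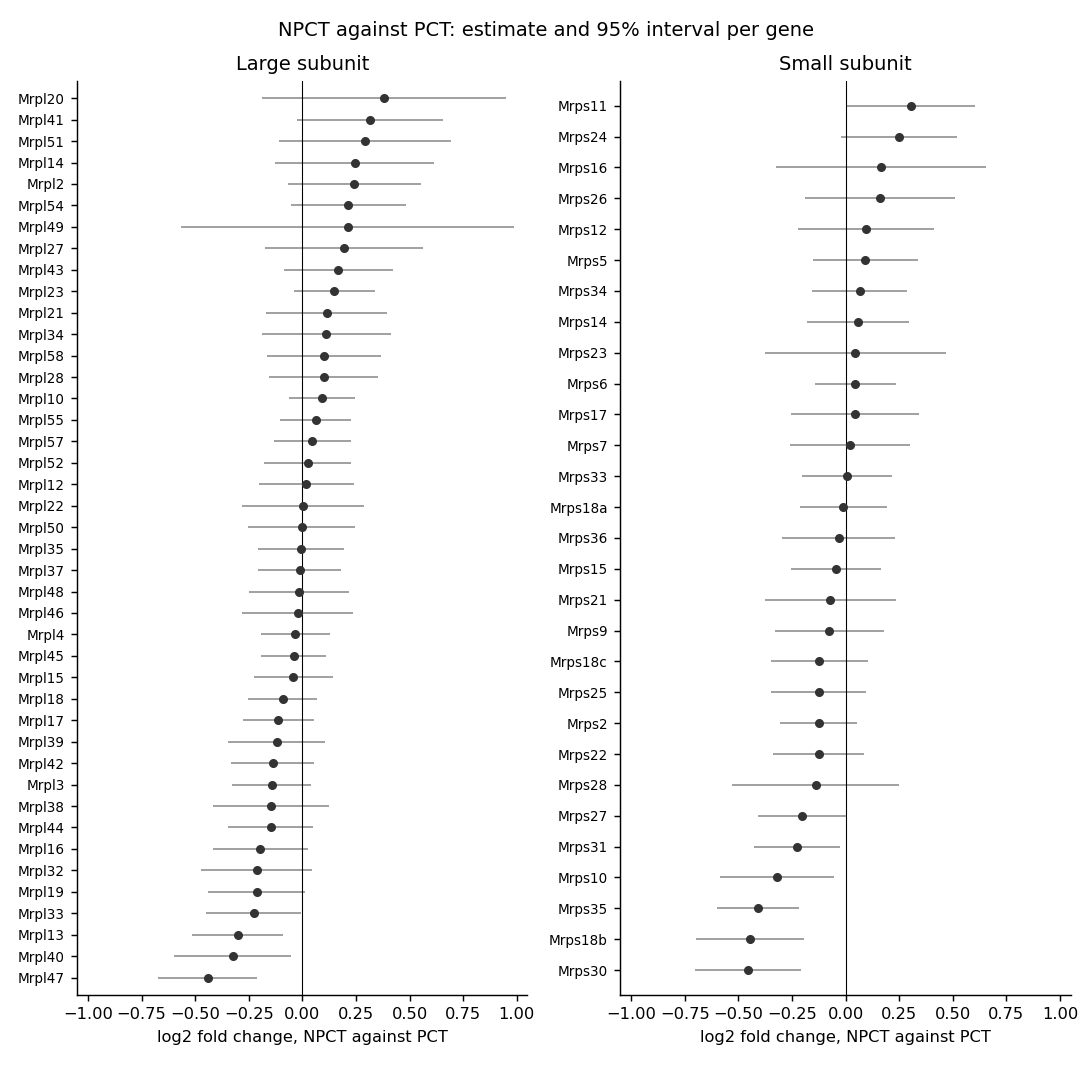
Log2 fold change of NPCT against PCT (horizontal axes) for 71 members, large subunit on the left and small subunit on the right, in order of the estimate. Points are estimates from 3 libraries a group and lines the 95% intervals; Mrpl1 and Mrpl30, whose intervals run past the axes, are left out, and the intervals of Mrpl47, Mrps30, Mrps18b and Mrps35 lie farthest below 0.

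The other genes of mitochondrial gene expression were set beside the members from lists, whose counts at an unadjusted p under 0.05 stand against 14.4% higher and 14.9% lower of all genes with NPCT and 10.1% and 8.79% with PCT. Of 5 mitoribosomal proteins with other names, 3 were higher with NPCT at an unadjusted p under 0.05 (median log2 fold change 0.25) and 1 with PCT (0.09). Chchd1, a small subunit protein, was at 36.8, 35.2 and 38.6 FPKM in Control and 49.6, 50.2 and 47 in PCT, a log2 difference of 0.41 (adjusted p = 0.0192). Gadd45gip1, a large subunit protein, was higher with NPCT than with PCT by 0.29 (adjusted p = 0.0351). Dap3 and Ptcd3, of the small subunit, had log2 differences of 0.08 and -0.12 with NPCT and -0.11 and 0.09 with PCT.

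Among 24 assembly factors tested, 1 was higher and 2 lower with NPCT, and 2 higher and 0 lower with PCT, at an unadjusted p under 0.05 (medians 0.10 and 0.08). Tfb1m, which methylates the small ribosomal RNA, was at 7.45, 8.04 and 7.41 FPKM in Control, 6.23, 5.8 and 6.33 in NPCT, and 7.27, 7.68 and 7.87 in PCT. It was lower with NPCT than with PCT by -0.31 on the log2 scale (adjusted p = 0.0338). Mterf4, a partner in ribosome assembly, differed by -0.54 (adjusted p = 0.0432). Malsu1, a factor of large subunit assembly, had 0.47 with PCT (adjusted p = 0.103). The 14 translation factors had medians of -0.03 and 0.09, with 1 higher and 1 lower with NPCT and 0 and 1 with PCT. The smallest p values were those of Pdf, the peptide deformylase, with 0.74 for NPCT (adjusted p = 0.0579), and the insertase Oxa1l, with -0.16 for PCT (adjusted p = 0.126), and the elongation factor Gfm1 had -0.26 between the peptides (adjusted p = 0.0613).

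Of 18 tRNA synthetase and amidotransferase genes, 2 were higher and 1 lower with NPCT and 2 higher and 0 lower with PCT (medians 0.01 and 0.05). Cars2 had 0.26 with NPCT (adjusted p = 0.0545) and 0.20 with PCT (0.115). Ears2 was called lower with NPCT than with PCT, by -0.59 (adjusted p = 0.0226), at 2.3, 2.91 and 2.34 FPKM against 3.99, 3.41 and 4.1. Of 18 genes of mitochondrial transcription and RNA handling, 1 was higher and 7 lower with NPCT and 3 higher and 1 lower with PCT (medians -0.10 and 0.08). Mterf2, which binds mitochondrial DNA, was at 4.73, 4.7 and 4.07 FPKM in Control, 2.79, 2.98 and 2.25 in NPCT, and 4.01, 4.58 and 3.78 in PCT. It was called between the peptides with -0.61 (adjusted p = 0.0231), as was the exoribonuclease Pnpt1 with -0.59 (0.0188). Against Control, Mterf2 had -0.74 with NPCT (adjusted p = 0.0509) and Tfam, which packages mitochondrial DNA, 0.31 with PCT (0.126). Fastk, an RNA-binding protein, was higher with NPCT than with PCT by 0.27 (adjusted p = 0.018).

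In the maintenance of mitochondrial DNA, 7 of 9 genes had positive values with NPCT and 7 with PCT (medians 0.12 and 0.12). At an unadjusted p under 0.05, 1 was higher and 1 lower with NPCT and 1 higher and 0 lower with PCT. Polg, the polymerase, had the smallest p with NPCT (0.26, adjusted p = 0.0973), Ssbp1 with PCT (0.38, 0.153) and Mgme1 between the peptides (-0.40, 0.196). Of 9 nuclear regulators, 1 was higher and 2 lower with NPCT and 1 higher and 0 lower with PCT (medians -0.05 and 0.08). Gabpa, the ETS factor whose core motif was searched above, was at 11.8, 10.5 and 10.5 FPKM in Control and 9.02, 9.19 and 8.49 in NPCT, a log2 difference of -0.29 (adjusted p = 0.0786). Its partner Gabpb1 was lower with NPCT than with PCT by -0.39 (adjusted p = 0.0227). Nrf1 had -0.06 with NPCT and 0.07 with PCT, and Myc 0.28 with PCT (adjusted p = 0.144).

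The mRNAs that the mitochondrial ribosome translates are those of mitochondrial DNA. All 13 had a negative log2 fold change with NPCT, 11 of them at an unadjusted p under 0.05, with a median of -0.62 and 0 called. With PCT the median was -0.05, with 4 positive and 9 negative. The share of all fragments from the mitochondrial genome was between 5.18% and 5.84% in Control, between 3.70% and 4.17% in NPCT, and 6.21%, 5.46% and 4.11% in PCT replicates 1, 2 and 3. PCT replicate 3 thus lay with the NPCT libraries. Between the peptides the median was -0.60. Of the 13, 9 were lower with NPCT at an unadjusted p under 0.05 there, against 17.5% of all genes. Called lower with NPCT were 4, where 5.76% of all genes were called in either direction. These were the complex I subunits ND2, ND4, ND4L and ND5, with log2 differences of -0.62, -0.85, -0.83 and -0.63 (adjusted p = 0.0455, 0.013, 0.0138 and 0.0479). The 2 ribosomal RNAs around which the members assemble were both lower with NPCT at an unadjusted p under 0.05, with a median of -0.51 and 0 called, and had -0.04 with PCT. These transcripts were measured after poly-A selection.

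**Figure D5:**
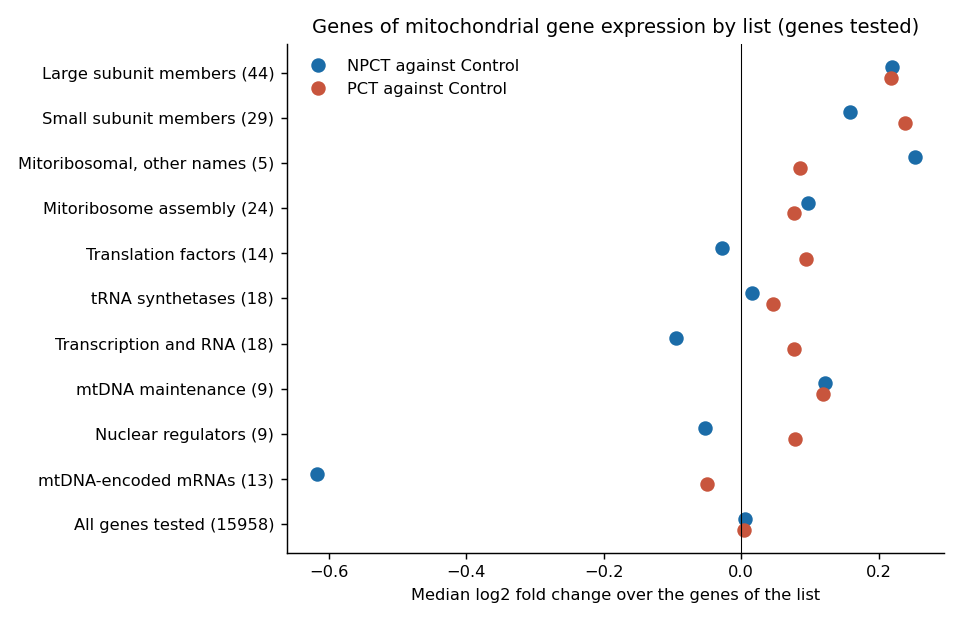
Median log2 fold change against Control (horizontal axis) for each list of genes, with the number of genes tested in parentheses; the points stand for NPCT and PCT. Both subunits lie to the right of 0 with either peptide, while the mRNAs encoded by mitochondrial DNA lie at -0.62 with NPCT and -0.05 with PCT.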

How the data were processed

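RNA was measured in 9 libraries, 3 each of Control, NPCT and PCT. The authors aligned reads to the rat genome with HISAT2 2.0.5, counted them with featureCounts 1.5.0-p3 and deposited FPKM per gene, and the submitters' processing notes name build Rnor_6.0. The values are whole multiples of 1 fragment per library in 100% of cases above 0 (tolerance 0.05), which gave back the fragments. The authors tested counts with DESeq2. As the deposited unit is FPKM, log2(FPKM + 0.1) was fitted here with limma 3.58.1 (R 4.3.3), with 1 mean per group, all 9 libraries and an intensity trend, for the 15958 genes whose mean reached 0.5 FPKM. Benjamini-Hochberg adjustment ran over all genes within each comparison. Fold changes are on the log2(FPKM + 0.1) scale, which understates the change of low genes. The fit was tested on simulated data, for which no values are given here. Median-ratio factors were 1 in every library, so no rescaling was needed. The depth behind FPKM was 0.977 to 1.03 times the summed fragments, above 1.01 in all NPCT libraries, so it was not the plain total, and how it was set is not given in the sources used here.

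Members were named from those called in any comparison, those of role lists and those next to the limit. Others came from the 3 largest rises and falls and the 3 highest and lowest levels of each subunit. Of the members so named, Mrpl3, Mrpl13, Mrpl44, Mrps2, Mrps16, Mrps22, Mrps24 and Mrps34 have no values of their own in the text above. In the other lists of mitochondrial gene expression, called genes and the smallest p were named. Members and lists were chosen with earlier results of these data known. Replicate numbers were not taken as pairs, as departures from group means of same-numbered libraries correlated between -0.09 and 0.17. Promoters are RefSeq sequences of build GRCr8. Columns of samples outside the series numbered 0. Alternatives were the pseudocount, the filter, quantile normalization, the replicate block, removal of a length trend, limma-voom on fragments, fits of 2 groups and leaving out each library.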

Additional observations from a re-analysis of the deposited data

How the results depend on the processing

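The medians of the members kept their direction against Control in every alternative run, while counts of called members did not hold. With NPCT against Control, 1 member was called, and the count was 0 with no filter or no intensity trend, 2 with a pseudocount of 1, 3 with a minimum of 1 FPKM or quantile normalization, 4 with the replicate block, 5 with limma-voom and 6 in the fit of 2 groups, or 3 in that fit with the length trend removed, an alternative chosen after seeing the data. The count over all genes, 35, moved too, to 9, 0, 43, 208, 189, 319, 391, 579 and 483 in these settings as listed. Leaving out a library gave 0 to 6 calls: no call was left without any single Control or NPCT replicate or PCT replicate 2, 3 were made without PCT replicate 1, and 6 when PCT replicate 3 was left out, where all genes gave 0 to 2, 220 and 562. The causes were not tested. With PCT, 1 member was called, and 2 with the length trend removed or limma-voom (396 and 374 of all genes), and 0 to 3 without 1 library (172 to 398 of all genes), with 0 without Control replicate 1 or PCT replicate 3. Between the peptides the count was 0 to 3 without 1 library, with 3 without PCT replicate 3 (525 to 1623 of all genes). It was 0 in the other settings, among them the fit of 2 groups, where 454 of all genes were called. The NPCT median was 0.11 with the length trend removed, alone, with the replicate block or in the fit of 2 groups, and 0.14 to 0.25 without 1 library. The PCT median was 0.19 to 0.25 without 1 library. Between the peptides the median was -0.10 in the same length settings and -0.06 to 0.05 without 1 library. The replicate numbers did not pair the libraries. With 3 libraries a group, differences within about 0.25 on the log2 scale could not be told from 0 for a typical member by the unadjusted 95% interval. A call asked for more, by its adjusted p and its fold limit.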
